A study of Homo sapiens with 11 samples.

Results

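The genes described here encode growth factors of blood vessels and the apelin pair: the VEGF family ligands VEGFB, VEGFC and PGF (placental growth factor), the angiopoietins ANGPT1 and ANGPT2, the platelet-derived growth factor chains PDGFA and PDGFB, the peptide ligand APLN (apelin) and its receptor APLNR. They were chosen by name from these families, and only some of the other ligands of these families are described further on. The members make up 9 of the 19990 genes of the count table, and all 9 were tested. The study followed heart muscle cells grown from the established human iPSC line WTC11 (iPSC, induced pluripotent stem cell) through long culture. A single differentiation at passage 63 was driven by the GSK3 inhibitor CHIR99021 and then the Wnt inhibitor IWP2, and sister wells of 12-well plates stayed in RPMI1640 with B27 and insulin. The libraries of poly(A) RNA came from 4 Day 30 wells, 3 Day 60 wells and 4 Day 113 wells.

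All groups shared the line, the passage, the differentiation and the medium, and differed only in the labelled day. The replicates were wells of that single differentiation, so p-values measure the spread between these wells and cover no second differentiation or line. The labels give no batch, and each day was also its own collection, so time in culture and collection cannot be told apart. Libraries held 24.1 to 34.5 M counts (M, 1000000). The 9 cardiomyocyte markers (among them TNNT2, MYH7 and ACTN2) were present in every well, with a summed level of 30000 to 41600 CPM at Day 30, 37400 to 43000 at Day 60 and 31100 to 33000 at Day 113, where CPM is counts per 1000000 counts after TMM scaling.

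Most of these ligands work between neighbouring cells. VEGF family ligands bind the receptors FLT1, KDR and FLT4 on endothelial cells, and PGF and VEGFB bind FLT1 while VEGFC acts through FLT4, the receptor of lymphatic endothelium. ANGPT1 activates the endothelial receptor TEK and steadies vessels, whereas ANGPT2, released by endothelial cells themselves, mostly opposes it. PDGFB made by endothelium draws pericytes that carry PDGFRB, PDGFA acts on PDGFRA of stromal cells, and apelin, made by sprouting endothelium and by heart muscle, acts through APLNR on vessel growth and contractility. The heart depends on these signals to match its capillaries to its muscle.

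Promoter sequences are shown for 3 ligands that stand for the patterns below: APLN and PGF, which were highest at Day 113, and VEGFB, the most abundant member. Each is the RefSeq window of 250 bases before to 50 bases after the gene start on GRCh38.p14, read 5′ to 3′ on the strand of the gene. Capitals mark ACGTG or GCGTG on either strand (CACGT or CACGC when read on the other), the core letters of the hypoxia response element.
APLN, chrX:129654907-129655206, minus strand: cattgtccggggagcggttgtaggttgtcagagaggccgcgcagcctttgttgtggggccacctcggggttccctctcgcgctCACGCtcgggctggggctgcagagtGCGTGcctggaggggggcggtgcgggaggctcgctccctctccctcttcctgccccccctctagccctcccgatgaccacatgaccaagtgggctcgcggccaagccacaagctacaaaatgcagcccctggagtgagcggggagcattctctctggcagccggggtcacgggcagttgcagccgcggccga
PGF, chr14:74955715-74956014, minus strand: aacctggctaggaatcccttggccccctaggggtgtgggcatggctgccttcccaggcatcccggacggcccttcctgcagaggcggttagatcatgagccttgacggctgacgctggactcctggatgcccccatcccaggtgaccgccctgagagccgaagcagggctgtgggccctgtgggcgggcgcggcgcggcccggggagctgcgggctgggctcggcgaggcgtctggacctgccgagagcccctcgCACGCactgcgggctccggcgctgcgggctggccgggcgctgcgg
VEGFB, chr11:64234334-64234633, plus strand: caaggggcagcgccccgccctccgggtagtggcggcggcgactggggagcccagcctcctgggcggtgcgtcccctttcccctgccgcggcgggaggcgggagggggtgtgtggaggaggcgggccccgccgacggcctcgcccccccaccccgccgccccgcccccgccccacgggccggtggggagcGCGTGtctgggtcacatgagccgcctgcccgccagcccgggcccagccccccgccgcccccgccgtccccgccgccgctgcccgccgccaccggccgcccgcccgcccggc
The APLN window held 2 matches, starting 167 and 142 bases before the gene start, the PGF window 1 match starting at base 5 after it, and the VEGFB window 1 match starting 61 bases before it. All 4 matches were GCGTG, and ACGTG was found in none of the 3 windows. Of all 35116 RefSeq promoter windows of this length, 36.5% held GCGTG, 21.4% held ACGTG and 48.4% held either, so a match was common. RefSeq windows were found for 5 of the 9 members (VEGFB, VEGFC, PDGFA, PGF and APLN), with 9 windows in all. A match describes letters in the window and not a site in use.

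PGF, ANGPT2, PDGFB and APLN were 4.00- to 14.3-fold higher at Day 113 than at Day 60. VEGFB was the only member with a fall that passed the test in that interval (log2 difference -0.39), and the call was lost in 5 of 20 alternative fits. VEGFC was at -0.37 there and did not pass. VEGFC was lower at Day 113 than at Day 30, and PDGFA, ANGPT1 and APLNR passed the test in no pair of days. In edgeR's quasi-likelihood test for any change over the 3 days, 6 of 9 members passed at an adjusted p under 0.05, where 37.1% of all genes did. The level of each gene in each well is given first and then the change.

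**Figure D1:**
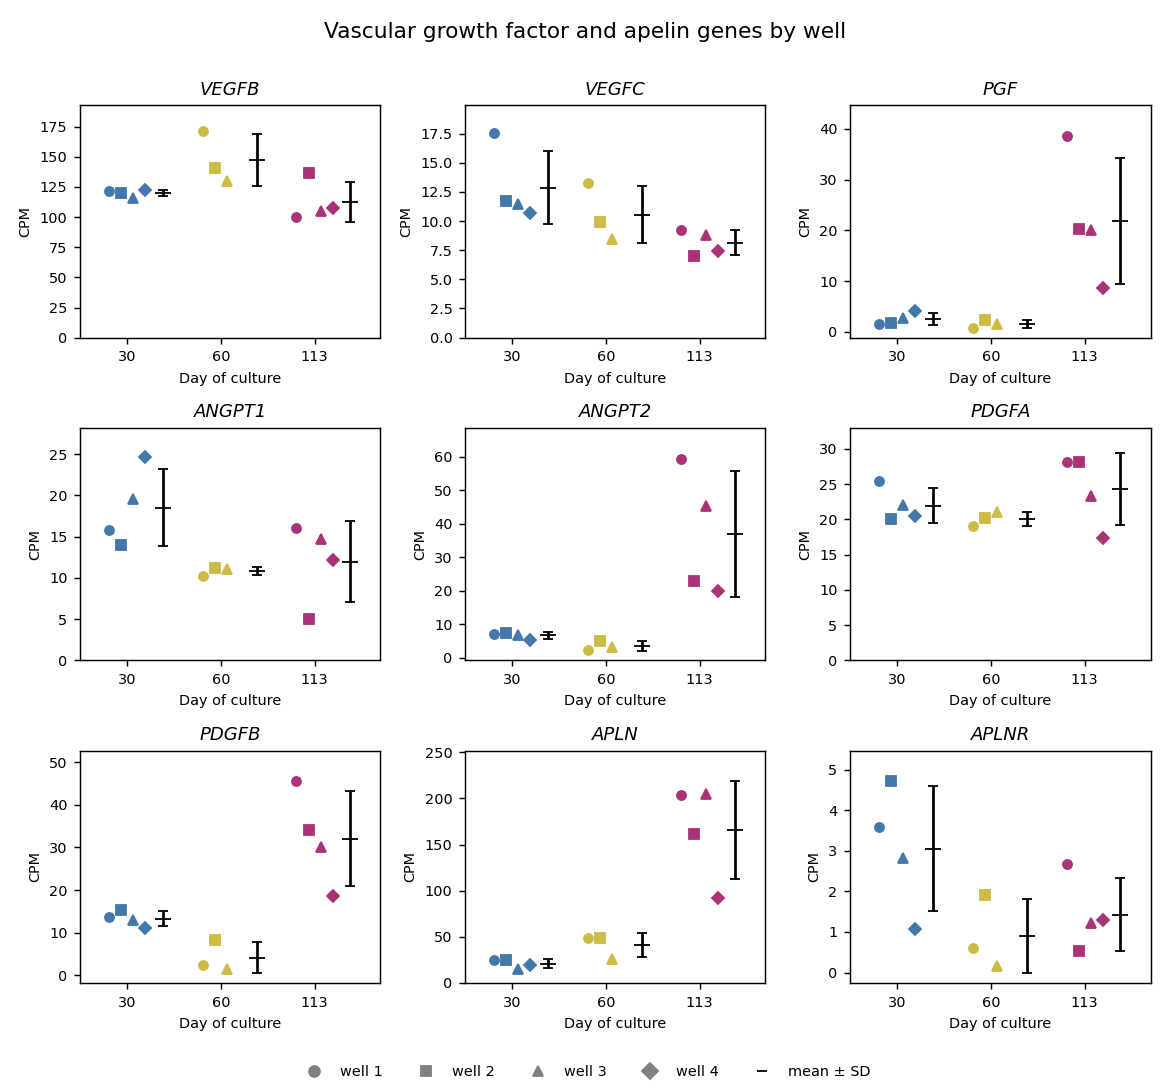
Level of each of the 9 genes in each well (CPM, vertical axis that includes 0, scale set per panel) by day of culture. Coloured symbols are wells, and black bars are the mean ± SD of 4, 3 and 4 wells. The Day 113 wells of PGF, ANGPT2, PDGFB and APLN all lie above the wells of the other days, while VEGFB, PDGFA and ANGPT1 overlap between Day 113 and Day 60.

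Of VEGFB, VEGFC and PGF, VEGFB, known in heart for its link to fatty acid handling, was the most abundant. No other VEGF family ligand is described here. VEGFB lies at chr11:64234538-64238793 on the plus strand of GRCh38, a coding gene of 8 exon blocks. Its level was 121, 120, 116 and 122 CPM in the Day 30 wells, 171, 141 and 130 CPM at Day 60, and 99.7, 137, 105 and 108 CPM at Day 113. The Day 60 wells were all above the Day 30 wells, and at Day 113 only the well with 137 CPM reached the Day 60 range. VEGFB fell by 0.39 ± 0.12 on the log2 scale from Day 60 to Day 113 (SE, edgeR adjusted p = 0.024). The difference from Day 30 to Day 60 was 0.29 ± 0.12 (adjusted p = 0.14), and passed with only those 2 days in the fit (0.036) or without Day 113 well 2 (0.045). The fall was lost without Day 60 well 1, the highest well (-0.28, adjusted p = 0.14), without Day 113 well 1, 3 or 4 (adjusted p = 0.056, 0.063 and 0.052) and with only the 2 days in the fit (adjusted p = 0.059).

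VEGFC, the main growth factor of lymphatic vessels, lies at chr4:176683538-176792727 on the minus strand in 8 exon blocks. Its level was 17.6, 11.7, 11.5 and 10.7 CPM at Day 30, 13.2, 9.91 and 8.45 CPM at Day 60, and 9.24, 6.97, 8.84 and 7.46 CPM at Day 113. All Day 113 wells were below all Day 30 wells, and Day 60 overlapped both. VEGFC fell by 0.66 ± 0.20 (log2, SE) from Day 30 to Day 113 (adjusted p = 0.016), and the change in neither interval passed (-0.29, adjusted p = 0.48, then -0.37, adjusted p = 0.23). Day 30 well 1 stood above the other wells of its day, and without it the difference was -0.47 with an adjusted p of 0.079.

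PGF, a ligand of FLT1 that acts in vessel growth after injury, lies at chr14:74941834-74955784 on the minus strand in 6 exon blocks. It was low at first, with 1.49, 1.83, 2.67 and 4.19 CPM at Day 30 and 0.798, 2.36 and 1.48 CPM at Day 60. At Day 113 it reached 38.7, 20.2, 20.1 and 8.66 CPM. The lowest Day 113 well was above every earlier well, although the 4 Day 113 wells themselves were spread widely (21.9 ± 12.4 CPM, SD, n = 4). PGF rose by 3.84 ± 0.51 on the log2 scale from Day 60 to Day 113, a 14.3-fold change (adjusted p = 8.4e-05), and stood 3.10 ± 0.43 above Day 30 (adjusted p = 4.5e-05). Without Day 113 well 1, the highest, the late rise was 3.41 (adjusted p = 8e-05).

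Of the angiopoietins, only ANGPT2 passed in a pair of days. ANGPT1, typically made by mural and stromal cells, lies at chr8:107249482-107498055 on the minus strand in 11 exon blocks. Its level was 15.8, 14.0, 19.6 and 24.6 CPM at Day 30, 10.2, 11.2 and 11 CPM at Day 60, and 16.0, 4.95, 14.7 and 12.2 CPM at Day 113. The Day 60 wells were all below the Day 30 wells, and the Day 113 wells spanned both. ANGPT1 passed in no pair of days: the differences were -0.77 ± 0.30 (log2, SE, adjusted p = 0.12) from Day 30 to Day 60, 0.15 ± 0.29 (adjusted p = 0.77) from Day 60 to Day 113, and -0.62 ± 0.27 (adjusted p = 0.089) from Day 30 to Day 113. Day 113 well 2 was the lowest, and with it left out of the shared spread the Day 60 difference had an adjusted p of 0.013 (0.012 with only the 2 days in the fit). The difference of Day 113 from Day 30 passed without Day 113 well 1 (-0.80, adjusted p = 0.036) and with the well number as a block (-0.66, adjusted p = 0.045).

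ANGPT2 lies at chr8:6499651-6563409 on the minus strand in 9 exon blocks, and its exons overlap MCPH1 on the opposite strand. Its level was 6.99, 7.47, 6.84 and 5.32 CPM at Day 30, 2.20, 4.94 and 3.31 CPM at Day 60, and 59.4, 23.0, 45.1 and 19.8 CPM at Day 113. Every Day 60 well was below every Day 30 well, and every Day 113 well was above both. ANGPT2 rose by 3.41 ± 0.37 (log2, SE) from Day 60 to Day 113, which was 10.6-fold (adjusted p = 2e-05), and was 2.47 ± 0.32 above Day 30 at Day 113 (adjusted p = 2.1e-05). The earlier difference of -0.94 ± 0.35 between Day 60 and Day 30 did not pass (adjusted p = 0.11), but did with DESeq2 (0.044), with only the 2 days in the fit (0.04), with the well number as a block (-1.11, 0.044) and without Day 113 well 1 (0.049). The strand setting of the counting is not given, so reads of the overlap cannot be told apart, and MCPH1 rose by 0.37 from Day 60 to Day 113 (log2, adjusted p = 0.037).

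Within each well the ratio of ANGPT2 to ANGPT1 counts turned over. It was 0.444, 0.534, 0.350 and 0.217 in the Day 30 wells and 0.216, 0.440 and 0.302 in the Day 60 wells, so ANGPT1 counts were the higher in all 7. In the Day 113 wells it was 3.70, 4.63, 3.07 and 1.62, so ANGPT2 counts were the higher in all 4. On the log2 scale the mean ratio was -1.45 ± 0.56 at Day 30 (SD, n = 4), -1.71 ± 0.51 at Day 60 (SD, n = 3) and 1.60 ± 0.65 at Day 113 (SD, n = 4). The ratio was 3.31 higher at Day 113 than at Day 60 and 3.05 higher than at Day 30 (two-sided exact permutation tests over wells, each p = 0.0286, the smallest these tests can give, 0.0429 after adjustment over the 3 pairs of days). The difference of -0.26 between Day 60 and Day 30 had an exact permutation p of 0.457. Both count ratios use gene totals that are not set per length, so they compare days and not the amounts of the 2 ligands.

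Of the platelet-derived growth factor chains, PDGFA lies at chr7:497258-520296 on the minus strand in 9 exon blocks and varied least. Its level was 25.4, 20.0, 22 and 20.4 CPM at Day 30, 19.0, 20.2 and 21.0 CPM at Day 60, and 28.2, 28.1, 23.4 and 17.4 CPM at Day 113. The wells of the 3 days overlapped throughout, and the adjusted p was 0.72, 0.24 and 0.5 for Day 60 against Day 30, Day 113 against Day 60 and Day 113 against Day 30. PDGFB, at chr22:39223359-39244751 on the minus strand in 10 exon blocks, fell and then rose. It was at 13.8, 15.2, 13.0 and 11.1 CPM at Day 30, at 2.49, 8.37 and 1.55 CPM at Day 60, and at 45.7, 34.0, 30.2 and 18.6 CPM at Day 113. The 3 days did not overlap for PDGFB: Day 60 was lowest, Day 30 in between and Day 113 highest.

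PDGFB fell by 1.70 ± 0.42 (log2, SE) from Day 30 to Day 60 (adjusted p = 0.017), rose by 2.97 ± 0.44 from Day 60 to Day 113, a 7.85-fold change (adjusted p = 0.00021), and stood 1.27 ± 0.36 above Day 30 at the end (adjusted p = 0.012). The fall rested on the 2 low Day 60 wells: it did not pass without well 1 (-1.41, adjusted p = 0.09) or without well 3 (-1.28, adjusted p = 0.075), nor with robust dispersions (0.076). Robust dispersions also took the difference between Day 113 and Day 30 to an adjusted p of 0.053. The late rise held under each of the alternatives tried.

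APLN, at chrX:129645259-129654937 on the minus strand in 3 exon blocks, was the only member that passed in both intervals in the same direction. Its level was 24.8, 24.7, 15.1 and 19.1 CPM at Day 30, 49.0, 49.0 and 26.5 CPM at Day 60, and 203, 162, 205 and 92.2 CPM at Day 113. The 3 days did not overlap, with a narrow gap between the highest Day 30 well and the lowest Day 60 well. APLN rose by 0.99 ± 0.26 (log2, SE) from Day 30 to Day 60 (adjusted p = 0.023) and by 2.00 ± 0.27 from Day 60 to Day 113 (adjusted p = 0.00011), and was 7.91-fold higher at Day 113 than at Day 30 (adjusted p = 4e-07). The early rise did not pass with limma-voom (0.062), with robust dispersions (0.09), or without Day 30 well 3 or 4 (0.075 and 0.056) or Day 60 well 1 or 2 (0.093 and 0.091). The late rise and the rise from Day 30 to Day 113 held under each of the alternatives tried.

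APLNR, the G protein-coupled receptor of apelin, lies at chr11:57233577-57237314 on the minus strand in 1 exon block and was the lowest member at Day 60 and Day 113. Its level was 3.59, 4.74, 2.83 and 1.06 CPM at Day 30, 0.606, 1.92 and 0.158 CPM at Day 60 (between 5 and 52 counts), and 2.68, 0.525, 1.23 and 1.28 CPM at Day 113. The wells of the 3 days overlapped. The differences were -1.78 ± 0.72 (log2, SE, adjusted p = 0.14) from Day 30 to Day 60, 0.70 ± 0.71 (adjusted p = 0.53) from Day 60 to Day 113 and -1.09 ± 0.63 (adjusted p = 0.21) from Day 30 to Day 113. Without Day 60 well 2, the highest of its day, the first difference was -2.99 (adjusted p = 0.035).

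**Figure D2:**
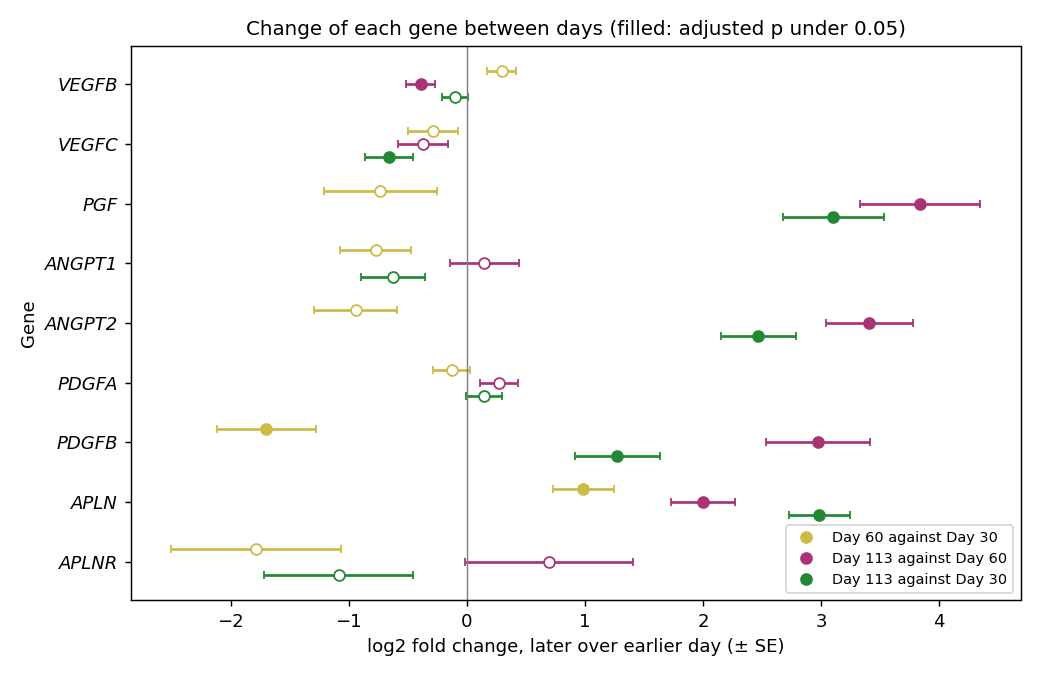
Difference of each gene between 2 days (log2 fold change ± SE, horizontal axis, later over earlier day). Filled points passed edgeR's quasi-likelihood test at an adjusted p under 0.05, and open points did not. PGF, ANGPT2, PDGFB and APLN have filled points at 2.00 or more for Day 113 against Day 60, and PDGFA, ANGPT1 and APLNR have open points throughout.

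Counted by comparison, 2 of 9 members passed from Day 30 to Day 60 (APLN higher, PDGFB lower), where 10.3% of all 19990 genes passed (4.39% higher, 5.91% lower), and the median member difference was -0.73 against -0.01 over all genes (log2). From Day 60 to Day 113, 5 of 9 passed (4 higher, VEGFB lower), where 24.0% of all genes did (12.9% higher, 11.1% lower), with a median of 0.70 against 0 over all genes. Between Day 30 and Day 113, 5 of 9 passed (4 higher, VEGFC lower), where 34.5% of all genes did (17.3% higher, 17.2% lower), with a median of 0.15 against -0.02. Wells of the 2 days did not overlap for 5, 4 and 5 members in these comparisons, where 24.8%, 30.6% and 35.1% of all genes did not. The 3 comparisons share wells, so their counts are not independent.

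The change from Day 60 to Day 113 minus the change from Day 30 to Day 60 was tested in the same fit. It passed for 4 of 9 members, where 9.34% of all genes passed: PDGFB (4.67 ± 0.81, log2, SE, adjusted p = 0.0024), PGF (4.57 ± 0.91, adjusted p = 0.0059), ANGPT2 (4.35 ± 0.67, adjusted p = 0.0013) and, in the other direction, VEGFB (-0.69 ± 0.21, adjusted p = 0.047). For APLN it was 1.01 ± 0.47 (adjusted p = 0.2), and 1.34 (adjusted p = 0.038) with the well number as a block. The VEGFB value did not pass in 10 of 18 alternatives, and that of PGF did not pass with limma-voom (adjusted p = 0.094).

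Levels were also set per kilobase of exon to compare different genes. The length was that of all GENCODE v29 exons of a gene together, and the annotation used in counting is not given. The order between genes is therefore approximate. VEGFB led on every day. It was at 77.7 ± 1.76 CPM per kb at Day 30, 95.4 ± 13.9 at Day 60 and 72.7 ± 10.7 at Day 113 (SD, n = 4, 3 and 4). APLN was next with 6.54 ± 1.47, 12.9 ± 4.06 and 51.7 ± 16.5 CPM per kb, and at Day 113 its highest well (64.0) came close to the lowest VEGFB well (64.5). At Day 30 the order went on with VEGFC (5.32), PDGFA (5.29), PDGFB (3.53), ANGPT1 (2.59), ANGPT2 (0.983), APLNR (0.817) and PGF (0.427). Wells overlapped between neighbours except between VEGFB and APLN, PDGFA and PDGFB, and ANGPT1 and ANGPT2.

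At Day 60 the order per kilobase after APLN was PDGFA (4.83), VEGFC (4.35), ANGPT1 (1.52), PDGFB (1.10), ANGPT2 (0.514), PGF (0.259) and APLNR (0.239). VEGFB, APLN and VEGFC were there separated from the next lower gene, and the others overlapped with theirs. At Day 113 PDGFB (8.54) followed APLN, ahead of PDGFA (5.84), ANGPT2 (5.43), PGF (3.68), VEGFC (3.36), ANGPT1 (1.68) and APLNR (0.383). Only VEGFB, APLN and VEGFC lay apart from the next lower gene on that day.

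Several of these ligands are made by endothelium, and markers of endothelial cells rose with ANGPT2, PGF, PDGFB and APLN from Day 60 to Day 113. All 11 endothelial markers (PECAM1, CDH5, VWF, CLEC14A, ERG, EMCN, ESAM, CLDN5, EGFL7, SOX18 and ROBO4) rose from Day 60 to Day 113, with a median log2 difference of 4.28. All 11 also passed as higher when set against Day 30 (median 3.02). Of all genes, 12.9% and 17.3% were higher in these comparisons. From Day 30 to Day 60, 3 of 11 fell (ESAM, EGFL7 and SOX18), where 5.91% of all genes fell, and the others did not pass. In that interval PDGFB also fell, while APLN rose. The summed level of the 11 markers was 82.5, 92.7, 82.2 and 54.4 CPM at Day 30, 36.2, 53.9 and 31.6 CPM at Day 60, where CLEC14A was at 0 in well 3, and 929, 437, 454 and 238 CPM at Day 113. In bulk RNA, more cells of a type and more RNA per cell cannot be told apart. The part of these markers in the changes of the ligands was not tested.

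The wells lined up in the same way within Day 113. Well 1 was highest and well 4 lowest for ANGPT2, PGF and PDGFB as for the endothelial sum, while for APLN wells 3 and 1 were nearly equal and well 4 again lowest. The fibroblast and mural sums, given below with other cell types, also had well 1 highest (13000 and 1150 CPM) and well 4 lowest (5390 and 733 CPM). So did PDGFA (28.2 and 17.4 CPM), which passed in no pair of days, and NRP2 (220 and 144 CPM), which was lowest at Day 113. VEGFC, ANGPT1 and APLNR were highest in well 1 and lowest in well 2. Library totals were also highest in well 1 (34.5 M) and lowest in well 4 (24.1 M), so the order was not particular to these ligands. PDGFB at Day 60 was highest in well 2, the well with the highest endothelial sum of that day. VEGFB, the most abundant member, had its lowest Day 113 level in well 1.

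**Figure D3:**
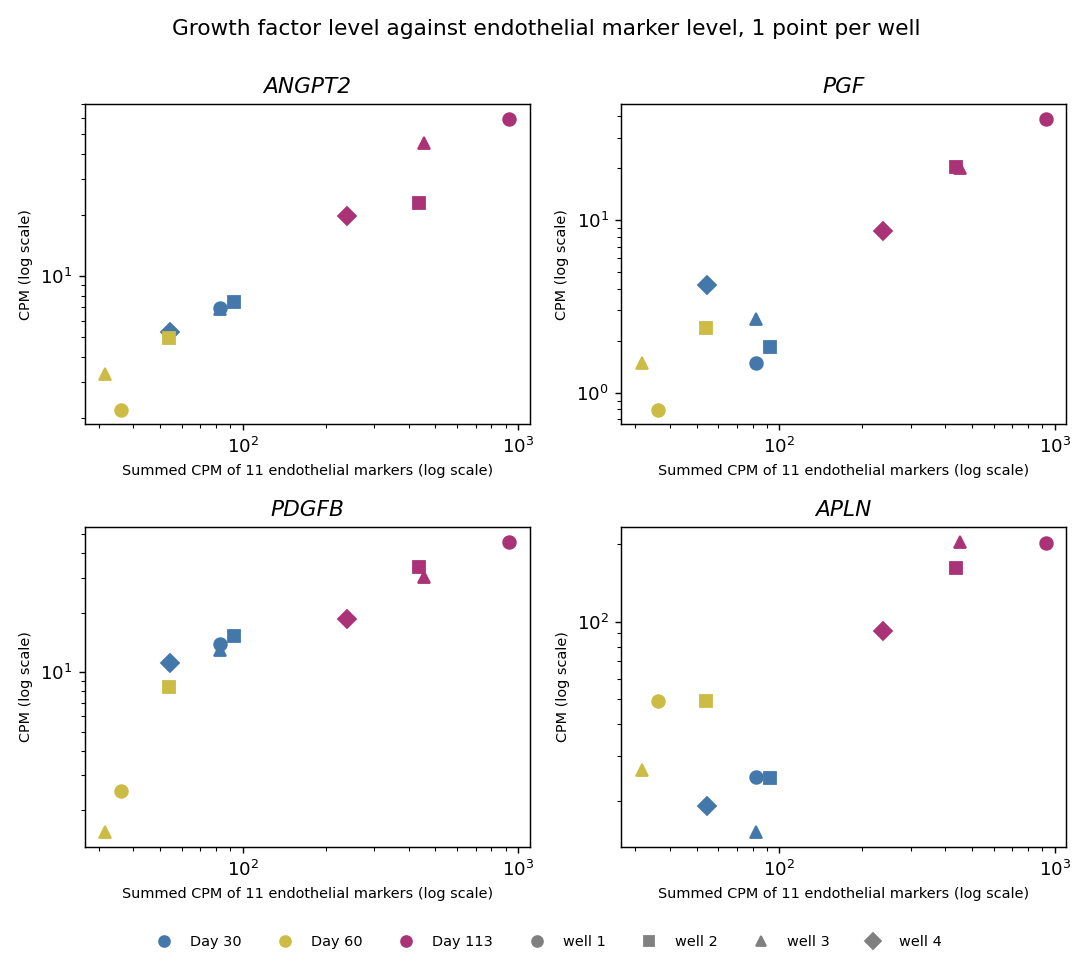
Level of ANGPT2, PGF, PDGFB and APLN in each well (CPM, log scale) against the summed level of 11 endothelial markers in the same well (CPM, log scale). Each symbol is a well, coloured by day. The Day 113 wells lie at the upper right in each panel, with endothelial sums of 238 to 929 CPM, and the Day 60 wells of APLN lie above its Day 30 wells at lower endothelial sums.

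Set against the endothelial sum, a ratio chosen after the values were seen and given as a description with no test, the ligands differed. ANGPT2 was at 8.66 ± 0.765 CPM per 100 endothelial CPM at Day 30, 8.58 ± 2.26 at Day 60 and 7.47 ± 2.07 at Day 113 (SD, n = 4, 3 and 4). PGF was at 3.68 ± 2.75, 3.76 ± 1.35 and 4.22 ± 0.434 on the same days. For both, the wells of the 3 days overlapped. The sum depends most on its most abundant markers: at Day 113 PECAM1 and CDH5 had means of 186 and 76.5 CPM, where the mean sum was 515. The part of endothelial content in the levels of ANGPT2 and PGF was not tested.

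PDGFB per 100 endothelial CPM was 17.3 ± 2.06 at Day 30, 9.09 ± 5.64 at Day 60 and 6.78 ± 1.35 at Day 113, and the Day 113 wells (4.91 to 7.79) were all below the Day 30 wells (15.8 to 20.4). APLN was at 27.6 ± 7.05, then at 103 ± 28.0 and then at 35.7 ± 9.86. The 3 Day 60 wells of APLN (83.8 to 135) were above all wells of the other days, which overlapped each other. The endothelial sum was 54.4 to 92.7 CPM at Day 30 and 238 to 929 CPM at Day 113, so a gene with a steady level is lower by this ratio at Day 113. VEGFB, VEGFC, ANGPT1, PDGFA and APLNR, which did not rise late, were lower in every Day 113 well than in every Day 30 well. For these genes the ratio holds the rise of the sum together with any change of their own, such as the lower VEGFC level at Day 113.

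**Figure D4:**
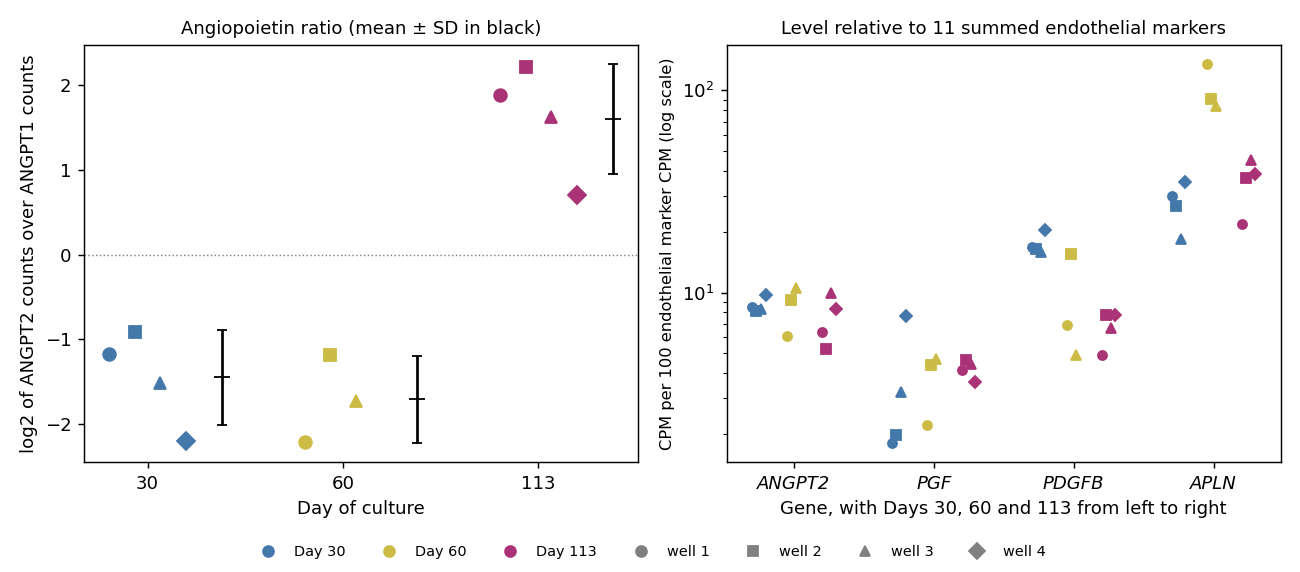
Left, log2 ratio of ANGPT2 to ANGPT1 counts in each well by day of culture, with the mean ± SD in black and a dotted line at equal counts. Right, CPM of 4 ligands per 100 CPM of 11 summed endothelial markers (log scale), with Days 30, 60 and 113 from left to right for each gene. The angiopoietin ratio is below 0 in the 7 earlier wells and above 0 in the 4 Day 113 wells, and APLN is highest relative to the endothelial sum at Day 60.

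Markers of other cell types also differed between days. The 7 fibroblast markers summed to 3240 to 7550 CPM at Day 30, 1960 to 3480 at Day 60 and 5390 to 13000 at Day 113. The sum was mostly the collagen genes COL1A1, COL1A2 and COL3A1, with Day 113 means of 3080, 2110 and 3620 CPM where the mean sum was 9090. Of the 7 fibroblast markers, 5 rose from Day 60 to Day 113, where 12.9% of all genes did. The 7 mural markers summed to 586 to 732, 496 to 587 and 733 to 1150 CPM, and 3 of 7 rose in that interval (12.9% of all genes). The largest differences in mean from Day 60 to Day 113 were in ACTA2 (104 to 252 CPM) and TAGLN (152 to 336 CPM). NOTCH3 (39.7 to 69.8) and ABCC9 (16.6 to 25.5) also had higher means. The means of RGS5 (186 to 180), CSPG4 (30.8 to 35.0) and KCNJ8 (25.6 to 23.3) differed little. The 6 endoderm markers, AFP and ALB among them, summed to 412 to 1210 CPM at Day 30, 44.7 to 52.8 at Day 60 and 11.3 to 40.2 at Day 113. All 6 fell from Day 30 to Day 60, where 5.91% of all genes did. Of the 4 lymphatic endothelial markers, LYVE1 and PDPN rose from Day 60 to Day 113 and none fell, where 12.9% of all genes rose and 11.1% fell. LYVE1 was at 0 in the 4 Day 30 wells. The sum of the 4 lymphatic markers, 116 to 183, 179 to 316 and 68.1 to 256 CPM on the 3 days, was mostly RELN (means of 127, 241 and 111 CPM), which passed in no pair of days. The part of these cell types in the levels of the 9 genes was not tested.

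The receptors of these ligands, with co-receptors and the receptor phosphatase, were 10 genes. From Day 60 to Day 113, 7 of 10 rose and 2 fell, where 12.9% of all genes rose and 11.1% fell. KDR, the main signalling receptor of vessel growth, went from 16.0, 26.2 and 19.0 CPM at Day 60 to 99.0, 47.1, 50.1 and 30.2 CPM at Day 113 (1.48 ± 0.29, log2, SE, adjusted p = 0.0019). FLT4, the receptor of VEGFC, went from 1.63, 4.61 and 2.74 CPM to 46.0, 24, 25.0 and 14.2 CPM (3.20 ± 0.40, adjusted p = 5.2e-05). FLT1, the receptor of PGF and VEGFB, went from 25.1, 30.4 and 18.7 CPM to 101, 45.8, 82.4 and 43.6 CPM (1.47 ± 0.27, adjusted p = 0.0012). For all 3 the Day 113 wells were above the Day 60 wells, and well 1 was the highest.

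The angiopoietin receptor genes rose with ANGPT2 in the late interval. TIE1, a partner of TEK, rose by 2.86 (log2, adjusted p = 0.00046), and PTPRB, the phosphatase that restrains TEK, rose by 1.85 (adjusted p = 0.0056). TEK itself rose by 1.10 (adjusted p = 0.041), with wells of 4.79, 6.08 and 2.68 CPM at Day 60 and 17.0, 5.77, 9.70 and 6.06 CPM at Day 113 that overlapped. The TEK call was lost without Day 113 well 1 (0.67, adjusted p = 0.15) or Day 60 well 3 (0.82, adjusted p = 0.17) and in 6 other alternatives. Without Day 113 well 1 its difference from Day 30 did not pass either (0.71, adjusted p = 0.077).

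The PDGF receptors moved in opposite directions. PDGFRB, carried by pericytes, was at 13.4, 24.9, 26.4 and 10.5 CPM at Day 30, 36.4, 45.7 and 33.9 CPM at Day 60 and 130, 57.4, 103 and 66.7 CPM at Day 113. Its wells did not overlap between days, and it was 2.25 ± 0.29 higher at Day 113 than at Day 30 (log2, SE, adjusted p = 2.2e-05). PDGFRA was at 150, 153, 155 and 117 CPM at Day 30, 93.9, 90.5 and 105 CPM at Day 60 and 38, 22.5, 32.2 and 36.4 CPM at Day 113. It fell by 2.15 ± 0.15 from Day 30 to Day 113 (adjusted p = 3.6e-08), again with no overlap, while the level of its ligand PDGFA overlapped between all days.

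The early calls of the receptors were less firm. From Day 30 to Day 60, PDGFRB rose and FLT1, FLT4 and PDGFRA fell, 4 of 10 in all, where 10.3% of all genes passed. The FLT1 fall (-1.26, adjusted p = 0.007) did not pass without Day 60 well 3 (0.053), and the FLT4 fall (-1.47, adjusted p = 0.02) was lost in 6 of 20 alternatives, with limma-voom (0.11) and without Day 60 well 1 (0.11) among them. The PDGFRB rise (1.04, adjusted p = 0.036) was lost in 7 alternatives, and the PDGFRA fall (-0.57, adjusted p = 0.023) in 6, each with adjusted p up to 0.13 and 0.11. Between Day 30 and Day 113, 8 of 10 passed, 6 higher and 2 lower, where 34.5% of all genes did, and FLT1 did not (0.20, adjusted p = 0.56).

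The neuropilins, co-receptors of VEGF ligands, did not follow the receptors. NRP2 was at 532, 434, 494 and 409 CPM at Day 30, 440, 362 and 403 CPM at Day 60 and 220, 169, 199 and 144 CPM at Day 113, where all wells were below all earlier wells. It fell by 1.13 ± 0.14 (log2, SE) from Day 60 to Day 113 (adjusted p = 4.2e-05) and by 1.35 ± 0.13 from Day 30 (adjusted p = 1.2e-06). NRP1 lay between 209 and 317 CPM in all 11 wells and did not pass in any pair of days, with an adjusted p of 0.072 for Day 113 against Day 30. That last difference of -0.27 passed with upper-quartile scaling (0.042), with limma-voom (0.047), with the well number as a block (0.025) and without Day 113 well 1 (-0.40, adjusted p = 0.0036).

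**Figure D5:**
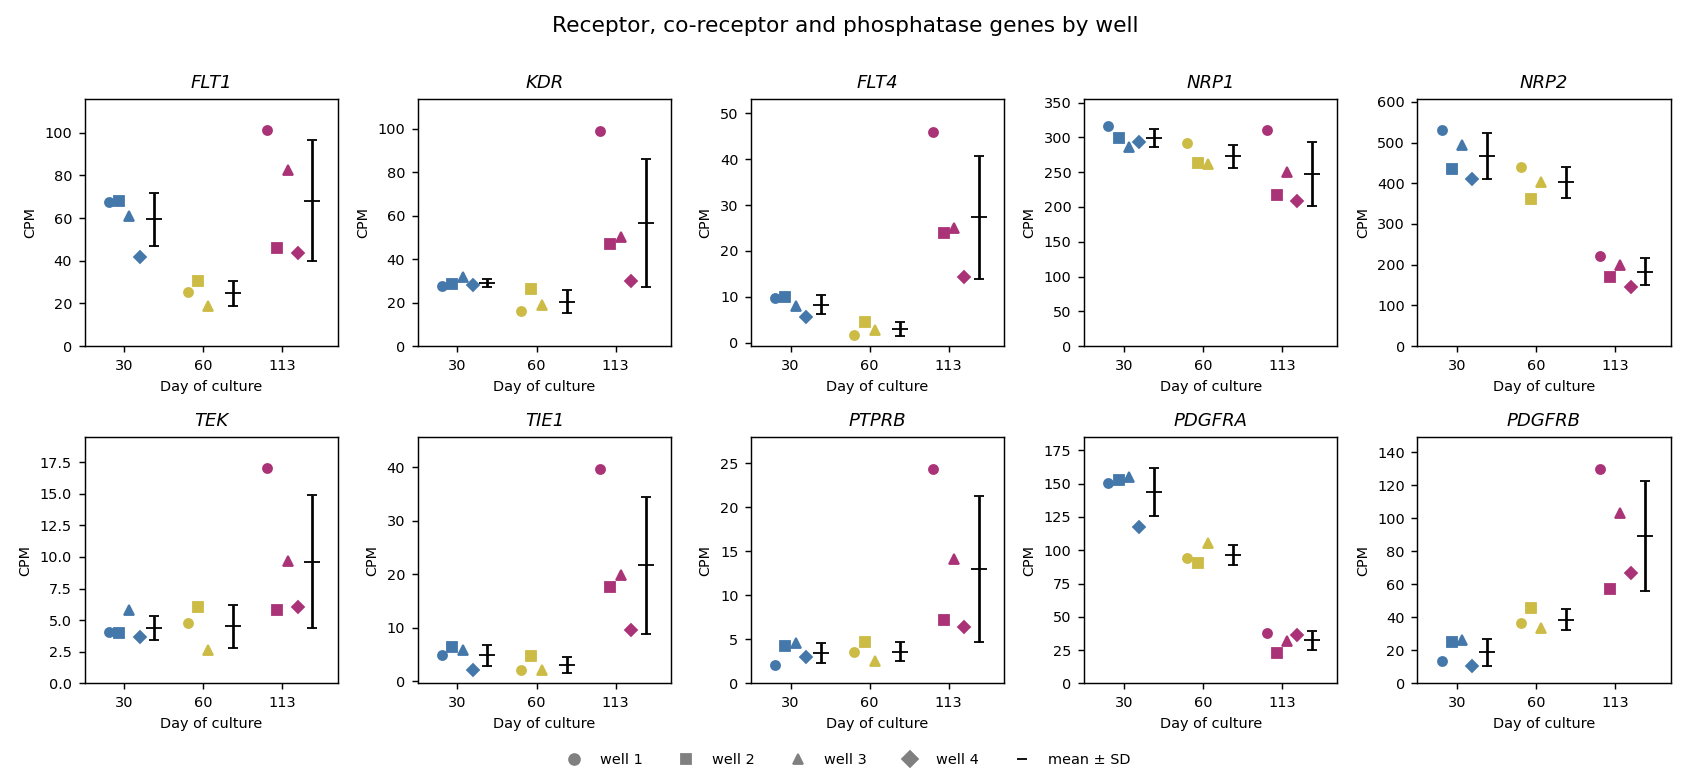
Level of 10 receptor, co-receptor and phosphatase genes in each well (CPM, vertical axis that includes 0, scale set per panel) by day of culture. Coloured symbols are wells, and black bars are the mean ± SD of 4, 3 and 4 wells. FLT4, TIE1 and PDGFRB are highest at Day 113, where well 1 is the highest well, and PDGFRA and NRP2 are lowest at Day 113.

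Of all 24 other genes of these pathways listed for comparison, 22 were in the table, and VEGFD and ANGPT4 were not analysed here. From Day 30 to Day 60, 12 of 22 passed (3 higher, 9 lower), where 10.3% of all genes did. From Day 60 to Day 113, 11 passed (8 higher, 3 lower), where 24.0% of all genes did, and between Day 30 and Day 113 14 passed (8 higher, 6 lower), where 34.5% did. The median log2 differences were -0.36, 0.38 and -0.01. APELA, the second ligand of APLNR, fell by 2.30 ± 0.48 (log2, SE) from Day 30 to Day 60 (adjusted p = 0.0063), from 3.36, 4.27, 3.36 and 2.82 CPM to 0.415, 0.737 and 0.946 CPM. At Day 113 it was at 1.15, 2.17, 0.742 and 2.53 CPM (1.22 above Day 60, adjusted p = 0.073, and 0.049 with DESeq2).

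MME (neprilysin), a peptidase that can cut apelin, fell early. It went from 15.8, 30.3, 31.7 and 15.0 CPM at Day 30 to 5.55, 7.48 and 5.39 CPM at Day 60, a fall by 1.92 ± 0.30 (log2, SE, adjusted p = 0.00077). All Day 60 wells were below all Day 30 wells. MME was still lower at Day 113 than at Day 30 (-1.69, adjusted p = 0.00018).

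Of the 7 genes that process VEGFC and PDGF precursors, 4 passed from Day 30 to Day 60 (10.3% of all genes), 1 from Day 60 to Day 113 (24.0%) and 3 between Day 30 and Day 113 (34.5%), so the later counts were near or under the share of all genes. ADAMTS14, a procollagen N-proteinase that can also cut VEGFC, rose from 25.3, 25.6, 25.0 and 20.7 CPM at Day 30 to 44.0, 38.7 and 38.6 CPM at Day 60 (0.74 ± 0.11, log2, SE, adjusted p = 0.00041) and was at 46.8 to 49.8 CPM at Day 113. FURIN, a proprotein convertase, fell by 0.74 ± 0.13 from Day 30 to Day 60 (adjusted p = 0.0015). ADAMTS3, which activates VEGFC, rose by 0.69 (adjusted p = 0.04) and PLAT, which can activate PDGF ligands, fell by 1.03 (adjusted p = 0.012) in that interval. Neither call was firm. ADAMTS3 did not pass in 6 alternatives that each left out a different well, with differences of 0.64 to 0.78. PLAT did not pass without Day 30 well 2 (0.053) or Day 60 well 3 (0.075). PLAT then rose by 0.72 (adjusted p = 0.039), which was lost in 9 of 20 alternatives, and PDGFD, a further ligand of PDGFRB, fell by 0.79 ± 0.09 from Day 30 to Day 113 (adjusted p = 7.6e-06).

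For each member the genes most like it across the 11 wells were found by Pearson correlation of log2 CPM among 11945 genes with a mean of at least 5 CPM. The wells share days and libraries, so these r values are descriptions over 11 points. The nearest genes were ADGRF5 (0.993), PHLDA1 (0.991) and ESM1 (0.991) for ANGPT2, CDC42EP3 (0.974), ERG (0.974) and MCAM (0.971) for PGF, and ESAM (0.976), MMRN2 (0.970) and ZNF587B (0.965) for PDGFB. ADGRF5, ESM1, ERG, ESAM and MMRN2 are known as genes of endothelial cells, and ERG and ESAM were also among the 11 endothelial markers. For APLN they were TNS2 (0.986), a copy of HLA-B listed with a suffix (0.984) and ACOX2 (0.978), none of them among those markers.

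For VEGFB the nearest genes were CKS1B (0.955), PNCK (0.930) and COQ8A (0.929), and for VEGFC ZBTB2 (0.987), ASXL1 (0.946) and PARS2 (0.937). For ANGPT1 they were EFR3A (0.966), RFX7 (0.943) and RAPGEF2 (0.931), and for PDGFA IFITM2 (0.869), ZNF266 (0.866) and DPM2 (0.853). For APLNR they were GPR107 (0.918), TCF7L1 (0.909) and CSPP1 (0.902). None of these genes was among the markers or pathway genes listed above. Counts of the HLA-B copy are uncertain, since near-identical sequences can share reads.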

How the data were processed

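Poly(A) RNA libraries (500 ng RNA each, paired-end 150-bp reads, NovaSeq 6000) were made from 11 wells, per the labels' protocols. The authors deposited raw whole-number counts for 19990 gene symbols. STAR 2.5.3a, featureCounts 2.0.3 and hg38 are named in the submitters' processing notes, and the annotation and strand setting are not given in the sources used here. The deposited TPM values were not used, since the ratio of CPM to TPM within 1 member differed 11.6- to 204-fold between libraries. The counts of all 11 libraries were fitted with edgeR 4.0.16 (R 4.3.3): TMM scaling (factors 0.966 to 1.04), filterByExpr at a minimum count of 10, which removed 0 genes, glmQLFit and glmQLFTest with day as factor, and Benjamini-Hochberg adjustment over all 19990 genes within each contrast at a threshold of 0.05. SE is the absolute log2 fold change over the square root of F. The fit was tested on simulated data with known changes. Wells of 1 day differed by more than sampling noise (chi-square per degree of freedom 11.4 to 84), so no library was taken for a copy of another, and wells were counted as samples because the labels name them so.

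Exon lengths came from GENCODE v29 and promoters from RefSeq. The angiopoietin ratio used counts with a pseudocount of 0.5 and two-sided exact permutation tests. All 9 members and the receptors are named, of other lists at most 6 genes that passed in a pair of days, and for each member the 3 most correlated genes at a mean of at least 5 CPM. Markers named as examples beside summed levels are outside this rule. Some results of the lists are not reported here. The members and lists were chosen with earlier results of these data known. Alternatives were RLE and upper-quartile scaling, no filter or a mean of at least 1 CPM, DESeq2 1.42.0 (not for the interval difference), limma-voom (limma 3.58.1), robust dispersions, only the 2 days compared, the well number as a block, and each well left out. For the ratio they were a pseudocount of 1 and CPM values.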

Additional observations from a re-analysis of the deposited data

Results flagged for a closer look

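Of 64 groups of 4 wells examined (the 9 genes, the other pathway genes described, the angiopoietin ratio and the endothelial sum, at Day 30 and Day 113), 4 held a well whose gap to the nearest other well, over the whole range, was above Dixon's 95% critical value of 0.829. Chance gives about 1 such group in 20. VEGFC at Day 30 was at 17.6 CPM in well 1 and at 10.7 to 11.7 CPM in the other wells. The others were all in Day 30 well 4. PDGFRA was at 117 CPM there against 150 to 155 in the others, and ADAMTS14 at 20.7 CPM against 25.0 to 25.6. CCBE1, a cofactor in VEGFC activation, was at 27.3 CPM against 18.6 to 19.3. The same well had the lowest endothelial sum of Day 30 (54.4 CPM), and the cause was not tested.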

How the results depend on the processing

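For the 9 genes, 658 of 702 values under an alternative kept their direction and their side of the threshold, 27 lost a call, 13 gained one and 4 changed sign. For the receptors and the other pathway genes that passed in some pair of days these were 992 of 1080, 65, 13 and 10. The fits without a filter are among these and could not differ, since the filter had removed 0 genes. Of 16 member calls 9 held throughout, among them the late rises of PGF, ANGPT2, PDGFB and APLN. Leaving out 1 well at a time gave 1220 to 2618 genes called for Day 60 against Day 30 (2060 with all wells) and 643 to 2221 for the difference between the intervals (1868), lowest without Day 60 well 3 (1220) or well 1 (643). The angiopoietin ratio difference ranged from 3.06 to 3.61 for Day 113 against Day 60 and from 2.80 to 3.35 against Day 30, with adjusted exact permutation p of 0.0429 to 0.15 and of 0.0429 to 0.0857, which follows from the smallest p that fewer wells allow. The difference between Day 60 and Day 30 ranged from -0.52 to -0.01.

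Sign changes occurred only among differences that had not passed. TEK from Day 30 to Day 60 was -0.05 with limma-voom, -0.11 with the replicate block, and between -0.23 and 0.33 with a well left out (-0.04 without Day 30 well 4). PTPRB was -0.15 with the block, and between -0.19 and 0.29 with a well left out (-0.12 and -0.01 without Day 30 well 1 or 4). From Day 60 to Day 113, ANGPT1 was -0.03 with the block and -0.02 to 0.40 with a well left out, and MME was -0.01 to 0.40. FLT1 was -0.05 to 0.36 for Day 113 against Day 30 with a well left out, negative without Day 113 well 1, and the VEGFC interval difference was 0.05 with the block and -0.39 to 0.28 with a well left out, positive without Day 60 well 1. The cause was not tested. Another scaling moved the median of all genes by at most 0.066 in size (log2).

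Nothing in the labels says that well numbers pair wells. Same-numbered wells of different days had residual correlations of 0.023 to 0.076 over 10 pairs (mean 0.048). Other pairs of wells had -0.078 to 0.069 over 30 (mean -0.016). The same-numbered values were small but all positive, and whether wells share an effect of their number was not tested. The main fit took the wells as unpaired because the labels do not pair them. The replicate block gave 2474 genes called for Day 60 against Day 30, 4954 for Day 113 against Day 60, 7143 for Day 113 against Day 30, 7775 for any change and 2366 for the interval difference, against 2060, 4790, 6889, 7411 and 1868. DESeq2 was not run for the interval difference. Depth limits APLNR, at 5 to 142 counts per well.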

Other observations

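Several of these ligands are known as hypoxia-inducible, so 12 other hypoxia-inducible genes were described. From Day 60 to Day 113, 4 of the 12 fell and none rose (median log2 difference -0.32, all genes 0), where 11.1% of all genes fell and 12.9% rose. NDRG1, a stress-response gene, fell by 1.54 (adjusted p = 3.5e-05), SLC2A1, the glucose transporter GLUT1, by 1.12 (adjusted p = 0.00037), BNIP3, a mitophagy receptor, by 0.73 (adjusted p = 0.00037) and PDK1, a pyruvate dehydrogenase kinase, by 0.35 (adjusted p = 0.03), all in edgeR's quasi-likelihood test. From Day 30 to Day 60, 2 of the 12 rose (4.39% of all genes did), EGLN3, an oxygen-sensing hydroxylase (1.02, adjusted p = 0.00092), and BNIP3 (0.39, adjusted p = 0.042). Between Day 30 and Day 113, 6 of the 12 passed, 2 higher (CA9 and EGLN3) and 4 lower (BNIP3, NDRG1, SLC2A1 and P4HA1), where 17.3% of all genes were higher and 17.2% lower. The summed level of the list was 4570 to 5340 CPM at Day 30, 5130 to 6150 CPM at Day 60 and 3450 to 4160 CPM at Day 113. The part of oxygen supply in the levels of the ligands was not tested.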
